A study of Arabidopsis thaliana with 11 samples.

Results

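Seedlings without a functional PSY1 receptor were treated with the PSY1 peptide, and their transcripts were compared with those of untreated seedlings of the same mutant line. The question was which transcripts respond to PSY1 when the receptor PSY1R is missing. The group *psy1r* + PSY1 holds 2 arrays, replicates 1 and 3, of *psy1r* knockout seedlings exposed to 10 nM PSY1 for 4 h, and the group *psy1r* holds 3 arrays, replicates 1 to 3, of untreated knockout seedlings. These 5 of the 11 arrays of the study were chosen by their titles. The titles of both treated arrays name psy1, while their genotype label is the *psy1r* knockout, by which they were placed. The other 6 are WT + PSY1 (3 arrays, with the same dose and time) and WT (3 arrays, untreated), and they enter only where the response with PSY1R is set beside that without it. All groups are *Arabidopsis thaliana* of ecotype Columbia-0, grown in flasks of liquid medium on a shaker under continuous light for a week, and RNA came from whole seedlings. Signals therefore average over roots, leaves and all other organs, and fewer cells of a type and less RNA per cell cannot be told apart. The labels give no allele for *psy1r*, and the replicate 2 sample of *psy1r* + PSY1 was not analysed here. The study describes the replicates as independent biological samples.

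PSY1 is a small secreted peptide that carries a sulfated tyrosine and sugars, and it promotes cell expansion in the seedling. PSY1R is a receptor kinase with leucine-rich repeats on the outside of the cell, related to the receptors PSKR1 and PSKR2 of another sulfated peptide, phytosulfokine. The tyrosines of both kinds of peptide are sulfated by one enzyme, TPST, and a known target of PSY1R is the proton pump of the plasma membrane, which acidifies the cell wall so that it can extend.

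Each sample was read on its own Agilent array in 1 color, with 43603 probes. All levels below are log2 signals after each array was brought to a common 75th percentile, so a difference of 1 is 2-fold, and levels of different probes are not compared. On all 11 arrays the median spot signal was 239 to 380.5 over a local background of 44 to 47, and 72.3% to 81.8% of the probes were well above background. Only probes with 2 or more of the 5 *psy1r* arrays well above background were tested, which left 33747 probes and 20762 loci. The replicate number was also the slide, and *psy1r* + PSY1 always lay in position 4 of a slide and *psy1r* in position 3, so position and treatment cannot be told apart. Green tissue and root markers were both detected, as whole seedlings should show, with 10 of 10 loci tested in each list.

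The 5 arrays were not equally far apart. The spread of the difference between *psy1r* replicates 2 and 1 was 0.125 on the log2 scale (median absolute deviation over probes, scaled to the SD of a normal distribution), while *psy1r* replicate 3 differed from them by 0.487 and 0.482 and the 2 *psy1r* + PSY1 arrays from each other by 0.475. On 17 repeatedly spotted probes per pair, an F value compared how far array differences varied between probes with the spread of spots within an array. It was 2.02 for *psy1r* replicates 1 and 2, against 29.59 and 52.93 for replicate 3 with each of them. A shift shared by all probes does not enter this value. Replicates 1 and 2 were kept as 2 samples, with the count of calls also given with their average as 1. Treated and untreated arrays of one slide differed by 0.333 on slide 1 and 0.357 on slide 3, less than *psy1r* replicate 3 differed from the other untreated arrays. Across probes, deviations of *psy1r* + PSY1 replicate 1 from its group mean had r = 0.41, 0.17 and -0.33 with those of *psy1r* replicates 1, 2 and 3. With 2 treated arrays, the deviations of replicate 3 mirror those of replicate 1. The value for both replicates 3 (r = 0.33) is therefore not a separate result. Since same-numbered arrays share a slide, the differences within slide 1 and within slide 3 stand beside the group difference below. The *psy1r* + PSY1 array of replicate 3 also stood apart by its seed transcripts, which are given further on.

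The targeted gene was examined first. The PSY1R probe had log2 signals of 3.12 and 5.91 in *psy1r* + PSY1 and 4.06, 4.12 and 2.08 in *psy1r*, against 9.15, 8.94 and 9.18 in WT + PSY1 and 9.42, 9.45 and 8.77 in WT. Every *psy1r* array lay below every wild type array, in keeping with the genotype labels. Within the mutant the signal was well above background on 1 of 2 treated and 1 of 3 untreated arrays, and the groups overlapped.

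No probe passed the test for PSY1-treated against untreated *psy1r* (limma, with a Benjamini-Hochberg adjusted p of less than 0.05 and more than 2-fold), that is 0 of 33747 probes (0%). The smallest adjusted p was 0.0838. At an unadjusted p below 0.05 there were 916 probes, 2.71% of those tested, of which 240 (0.711%) were also past 2-fold. When *psy1r* replicates 1 and 2 were counted as 1 sample, 0 probes were called, the smallest adjusted p was 0.802 and 428 probes (1.27%) had an unadjusted p below 0.05. The methods' t-test on the same values called 0 probes as well. Without *psy1r* + PSY1 replicate 1, where the treated group is 1 array that is assumed to vary like the untreated ones, 11 probes were called, 4 higher and 7 lower, and among the 4 were the seed genes CRU3, CRA1 and OLEO1. In a fit of all 11 arrays, which borrows the spread of the wild type groups, 6 probes were called, among them IRT1, AT5G45120, AT4G09210 and SRO4. The IRT1, AT5G45120 and AT4G09210 probes were above background on no untreated *psy1r* array. The spread behind their calls is therefore in part that of values at background.

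The 2 treated arrays were also read singly. On slide 1, 340 loci were more than 2-fold higher and 557 more than 2-fold lower in *psy1r* + PSY1 than in *psy1r*, and on slide 3 the counts were 1511 and 508. Only 103 loci were higher and 60 lower by that much on both slides, while 171 were lower on slide 1 and higher on slide 3 and 42 the other way round. Across all tested loci the differences on the slides had a correlation of -0.09, given as a description since loci are not independent. Between *psy1r* replicates 3 and 1, with no treatment between them, 2704 loci differed by more than 2-fold, and between replicates 2 and 1 590 did. These untreated pairs lie on different slides, unlike the treated and untreated pairs above.

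**Figure D1:**
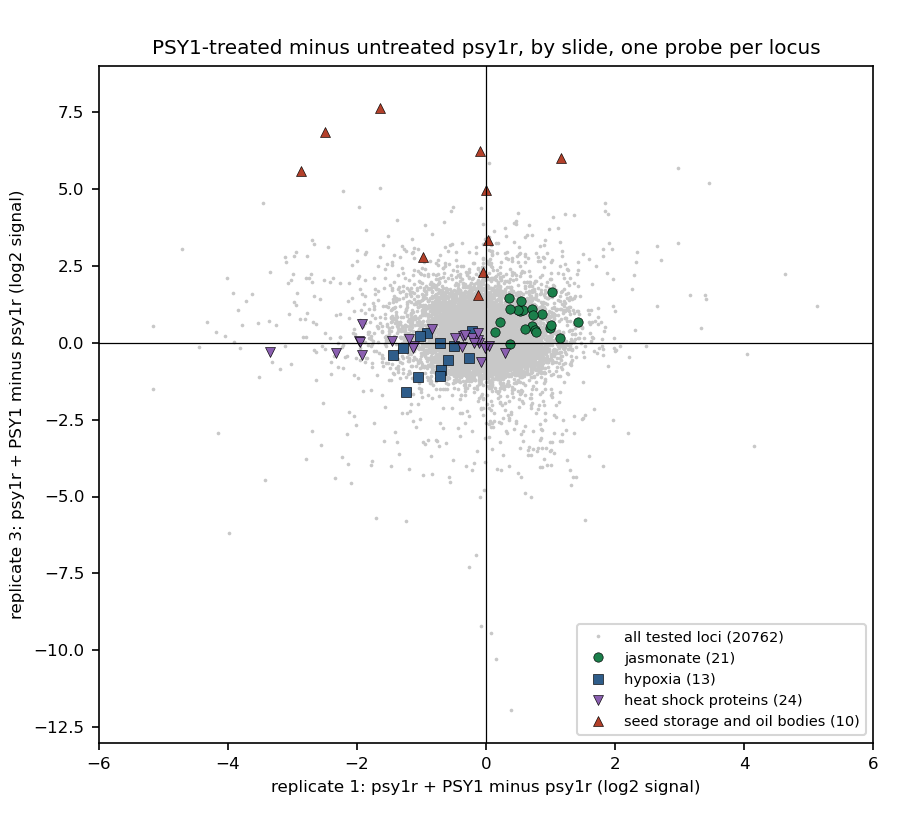
Difference between *psy1r* + PSY1 and *psy1r* (log2 signal) on slide 1 (horizontal axis) and slide 3 (vertical axis) for 20762 loci in grey, with the members of 4 gene lists in colour. Jasmonate loci lie mostly in the upper right and hypoxia loci mostly in the lower left, while seed storage loci lie high on slide 3 and not on slide 1, and the cloud as a whole has no slope (correlation of -0.09).

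Counted by probe, 161 probes (0.477%) were more than 2-fold higher and 131 (0.388%) more than 2-fold lower on both slides. From these, the loci described next were taken by size. Each had its treated arrays outside the range of the 3 untreated ones and a signal well above background on every array of the higher group, which left 64 loci on the higher side and 50 on the lower side. Since they were picked by this comparison itself, their values are a description, and none passed the test. On the higher side 11 of the 64 had no untreated array above background and on the lower side 20 of the 50 had no treated array above background. Their folds are given as at least a value, set by the lowest signal well above background of any probe on each array. This limit is approximate, since some probes not well above background read higher than that signal.

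IRT1, the iron-regulated transporter that takes up iron in the root, has a pair of probes that disagreed. The dimmer, which passed the filter only through the treated arrays, read 6.99 and 7.31 in *psy1r* + PSY1 and 2.33, 2.75 and 2.75 in *psy1r*. The treated arrays lay far above the untreated ones, none of which was above background, so the level was at least 16.6-fold higher (limma adjusted p = 0.0838, and 0.802 with *psy1r* replicates 1 and 2 as 1 sample). The spread that this test uses for the untreated arrays is that of values at background. The probe that was brighter on average over the 5 arrays read 4.31 and 6.72 in *psy1r* + PSY1 and 3.56, 5.41 and 5.27 in *psy1r*, and the groups overlapped. A probe without a locus had a limma adjusted p of 0.0838 too, with 5.68 and 5.56 in *psy1r* + PSY1 and 1.88, 2.07 and 1.82 in *psy1r*. It also passed the filter only through the treated arrays, and its untreated spread is likewise that of values at background.

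Some other loci on the higher side were also below background in untreated mutants. AT1G33940, a hypothetical protein in the study's tables, read 6.34 and 7.57 in *psy1r* + PSY1 and 3.37, 1.22 and 1.90 in *psy1r*, at least 14.6-fold higher. AT5G45120, of the aspartyl protease family, read 5.83 and 7.33 in *psy1r* + PSY1 and 2.37, 1.45 and 2.14 in *psy1r*, at least 11.4-fold higher. The hypothetical protein AT4G09210 read 4.99 and 5.21 in *psy1r* + PSY1 and 2.01, 1.09 and 1.98 in *psy1r*, at least 4.09-fold higher. In these 3 loci both treated arrays were above background and no untreated array was. By the same approximate limit AT2G21725 and AT3G32090 were at least 4.43-fold and 2.94-fold higher.

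Some loci on the higher side were measured in both groups. AT2G28710 read 6.95 and 8.15 in *psy1r* + PSY1 and 4.30, 4.57 and 4.99 in *psy1r*, a log2 difference of 2.93 ± 0.42 (SE). AT1G07200 encodes SMXL6, a repressor of strigolactone signaling that is broken down when the hormone is perceived. Its probe read 6.54 and 7.57 in *psy1r* + PSY1 and 5.38, 4.91 and 4.46 in *psy1r*, while a second, brighter probe of the locus had a difference of -0.03. AT2G38240 read 12.72 and 11.39 in *psy1r* + PSY1 and 10.76, 10.91 and 8.32 in *psy1r*. Here the lowest treated array was above the highest untreated array by less than the 3 untreated arrays differed from each other. The others were AT2G41910, AT1G73510, AT1G47540, AT1G29540 and AT5G49180, with log2 differences between 2.27 and 4.14, and SESA1, a seed storage albumin, which belongs with the seed transcripts below.

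On the lower side, CHX6B, a cation/H+ exchanger, had the largest difference. It read 2.18 and 1.86 in *psy1r* + PSY1 and 6.16, 4.19 and 8.06 in *psy1r*, at least 9.58-fold lower, and the spread among its untreated arrays was wide. LEC1, a master regulator of embryo development, read 2.58 and 3.85 in *psy1r* + PSY1 and 5.37, 4.73 and 7.62 in *psy1r*, at least 5.41-fold lower. RKD2, a transcription factor of the RWP-RK family, read 2.18 and 1.86 in *psy1r* + PSY1 and 4.74, 3.73 and 5.20 in *psy1r*, at least 3.20-fold lower. No treated array was above background for these 3 genes.

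SRO4, a relative of the stress regulator RCD1, was measured on all 5 arrays, with 5.71 and 6.46 in *psy1r* + PSY1 and 8.41, 8.38 and 9.34 in *psy1r* (log2 difference -2.62 ± 0.41 SE). Its second probe gave -2.89, and the locus was the only one of the 15 on this side with a call in the fit of all 11 arrays. AT4G36600, a late embryogenesis abundant protein, also had 2 probes that gave like differences. The brighter read 4.47 and 3.82 in *psy1r* + PSY1 and 6.51, 6.79 and 6.20 in *psy1r*, at least 5.12-fold lower, and the other was at least 4.68-fold lower. These loci with like probes contrast with AT3G50230, whose chosen probe was at least 6.11-fold lower while its brighter probe had a difference of 0.49.

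APX2, a cytosolic ascorbate peroxidase induced by heat and strong light, read 7.62 and 7.33 in *psy1r* + PSY1 and 10.25, 10.29 and 8.54 in *psy1r*. AT1G71000, annotated as heat shock protein binding, read 6.97 and 6.16 in *psy1r* + PSY1 and 9.50, 9.38 and 8.13 in *psy1r*. In both genes *psy1r* replicate 3 was the lowest untreated array, and the same order is found among the heat shock proteins below. The remaining loci were AT2G19850, AT5G35870, HSD4, AT1G53260, AT3G61111, AT5G45880 and the receptor-like kinase CRK23, with log2 differences between -3.27 and -1.87.

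**Figure D2:**
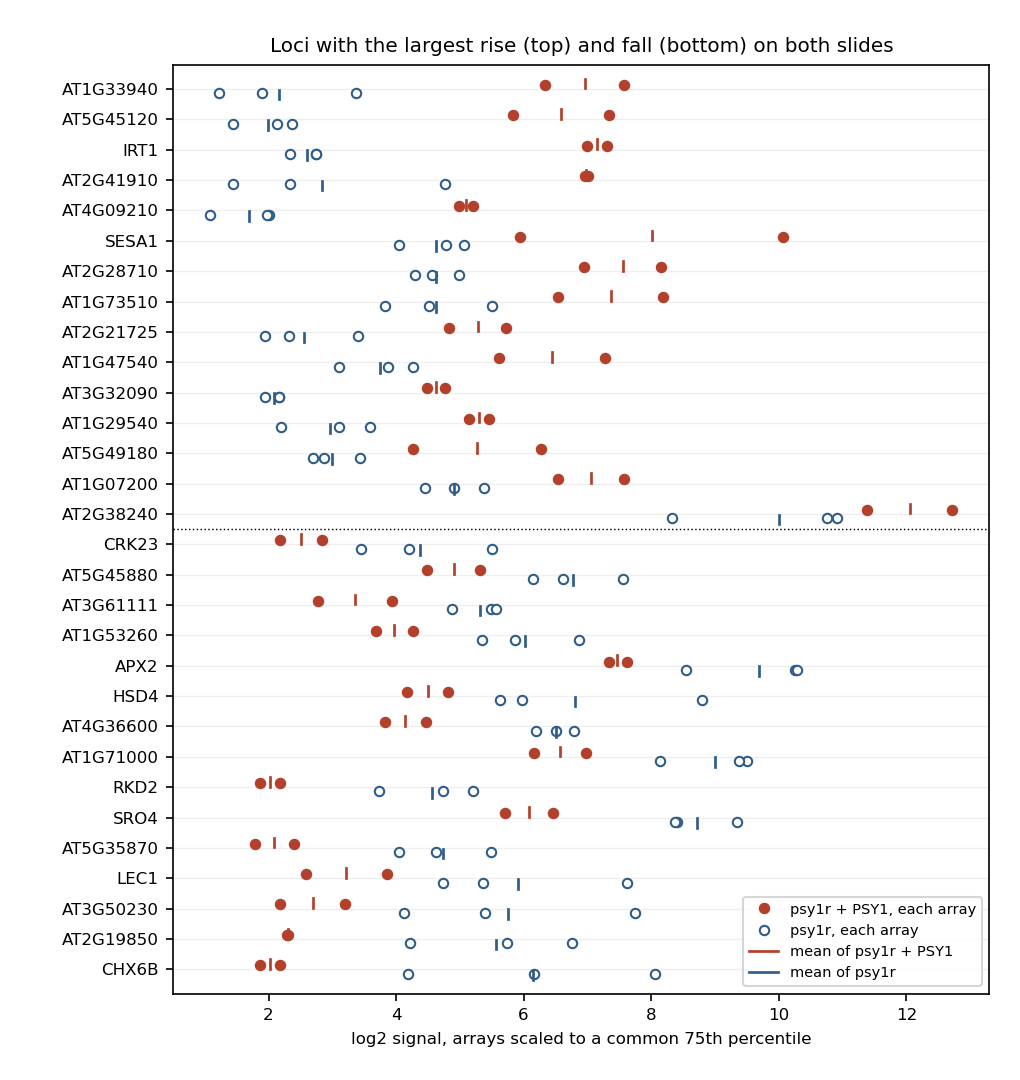
Log2 signal on each array for the 15 loci with the largest higher (top) and lower (bottom) level on both slides, with *psy1r* + PSY1 (2 filled points) drawn above *psy1r* (3 open points) in each row and the group means as ticks. Neither group overlaps the other in any row because that was part of the choice, while points within a group can lie far apart, as for CHX6B and SESA1.

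Genes of the sulfated peptide pathway showed no call, and 15 of 18 loci had the higher mean in *psy1r* + PSY1, beside 52.7% of all tested loci. PSY1 itself, the gene of the precursor, read 10.24 and 10.77 in *psy1r* + PSY1 and 9.92, 9.85 and 10.65 in *psy1r*, and the groups overlapped. PSY1R, near background in the mutant as given above, had the largest difference of the list, 1.09. Among the precursor genes of phytosulfokine, the differences were -0.09 for PSK1, 0.24 for PSK2, 0.20 for PSK3 and 0.68 for PSK6. PSK4 read 12.86 and 12.50 in *psy1r* + PSY1 and 11.83, 11.80 and 11.62 in *psy1r*, 1.91-fold higher (log2 difference 0.93 ± 0.19 SE, limma adjusted p = 1). PSK5 read 11.94 and 11.17 in *psy1r* + PSY1 and 10.82, 10.80 and 10.27 in *psy1r*, 1.90-fold higher (limma adjusted p = 1). Both treated arrays lay above all untreated ones, as in 4 of the 18 loci of the list and 7.48% of all loci. Both slides gave differences of 0.88 to 1.12 for these 2 genes. In WT + PSY1 against WT the differences were 0.10 for PSK4 and -0.06 for PSK5, and the difference between the genotypes did not pass the test for either (adjusted p = 0.210 and 0.424).

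The receptors and enzymes of the pathway differed less. PSKR1, a phytosulfokine receptor, read 8.99 and 8.89 in *psy1r* + PSY1 and 9.02, 8.99 and 8.49 in *psy1r*, and PSKR2 had a difference of 0.01 ± 0.26 (SE). TPST, the tyrosine sulfotransferase, had a difference of -0.14 ± 0.19 (SE). The co-receptor kinases BAK1, SERK1 and SERK2 lay between 0.02 and 0.27. The proton pumps HA1 and HA2 had differences of -0.11 and 0.13.

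Among the gene lists, which were chosen with earlier results of these data known, the jasmonate list was the most uniform in direction. Jasmonate is a lipid hormone of wounding and defence, made by the enzymes LOX, AOS, AOC and OPR3, and its response induces the JAZ repressors that shut it off again. All 21 loci had the higher mean in *psy1r* + PSY1 (52.7% of all loci did), 20 were higher on both slides (21.4% of all loci) and 7 had groups that did not overlap (7.48% of all loci). Past 2-fold higher were 2 of the 21, JAZ8 and JAZ10 (1.23% of all loci). The median difference was 0.61 over the list and 0.01 over all tested loci, with 0.72 on slide 1 and 0.68 on slide 3. Only 1 locus had an unadjusted p below 0.05 and none was called.

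JAZ8 had the largest difference, with 12.83 and 12.38 in *psy1r* + PSY1 and 11.40, 11.48 and 11.72 in *psy1r*, 2.11-fold higher (limma adjusted p = 1). JAZ10 read 13.97 and 12.62 in *psy1r* + PSY1 and 12.95, 12.91 and 10.96 in *psy1r*. For JAZ10 the groups overlapped although each slide had the higher level in the treated array, since both arrays of replicate 3 were lower than those of replicate 1. OPR3, the reductase of the synthesis pathway, followed the same order, with 15.94 and 15.09 in *psy1r* + PSY1 and 15.22, 15.16 and 13.99 in *psy1r*. The vegetative storage protein VSP1, a classic marker of the response, read 10.58 and 11.59 in *psy1r* + PSY1 and 10.00, 10.07 and 10.53 in *psy1r*, and MYC2, the transcription factor at the head of the response, read 14.58 and 14.73 in *psy1r* + PSY1 and 14.37, 14.33 and 14.05 in *psy1r*. Both had groups that did not overlap.

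The median of the list depended on the arrays used. It was 0.25, with 17 of 21 loci higher, without *psy1r* + PSY1 replicate 1 and 0.34 without *psy1r* replicate 3. In wild type, 18 of the 21 loci were also higher in WT + PSY1 than in WT, with a median of 0.43. The difference between the genotypes passed the test for 0 of 21 loci (limma on all 11 arrays, smallest adjusted p 0.261, 2 loci at an unadjusted p below 0.05).

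Hypoxia genes, induced in plants when oxygen runs short, leaned to the lower side. The list includes enzymes of fermentation and sucrose breakdown and transcription factors. Of 13 loci, 12 had the lower mean in *psy1r* + PSY1 (47.3% of all loci did), 10 were lower on both slides (20.8% of all loci), 2 had groups that did not overlap (7.23% of all loci), and none was called or had an unadjusted p below 0.05. The median difference was -0.59, with -0.71 on slide 1 and -0.39 on slide 3. It was -0.22 without *psy1r* + PSY1 replicate 1 and -0.90 without *psy1r* + PSY1 replicate 3.

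AT3G10040, the hypoxia regulator HRA1, had the largest difference. It read 11.42 and 12.70 in *psy1r* + PSY1 and 12.66, 12.53 and 14.31 in *psy1r*, and the groups overlapped. The fermentation enzyme ADH1, alcohol dehydrogenase, read 16.09 and 16.00 in *psy1r* + PSY1 and 16.80, 16.75 and 16.01 in *psy1r*. ETR2, an ethylene receptor, read 11.65 and 12.23 in *psy1r* + PSY1 and 12.36, 12.30 and 13.30 in *psy1r*, and it and AT4G33070 were the 2 loci whose groups did not overlap. Liquid culture and shaking were common to all groups.

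Heat shock proteins, the chaperones that protect and refold other proteins, were high on *psy1r* replicates 1 and 2. Of 24 loci 22 had the lower mean in *psy1r* + PSY1 (47.3% of all loci did) and 9 were lower on both slides (20.8% of all loci). Past 2-fold lower were 7 (1.03% of all loci), and 6 had groups that did not overlap (7.23% of all loci). None was called or had an unadjusted p below 0.05. The median was -0.42 on slide 1 and 0.02 on slide 3. HSP21, a small heat shock protein of the chloroplast, read 8.19 and 8.63 in *psy1r* + PSY1 and 11.54, 11.47 and 8.93 in *psy1r*. HSP101, a chaperone that dissolves protein aggregates, read 13.28 and 12.51 in *psy1r* + PSY1 and 14.73, 14.86 and 12.45 in *psy1r*. In both, *psy1r* replicates 1 and 2 were above the 3 other arrays, and over the list the median of *psy1r* replicate 3 minus replicate 1 was -0.72.

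**Figure D3:**
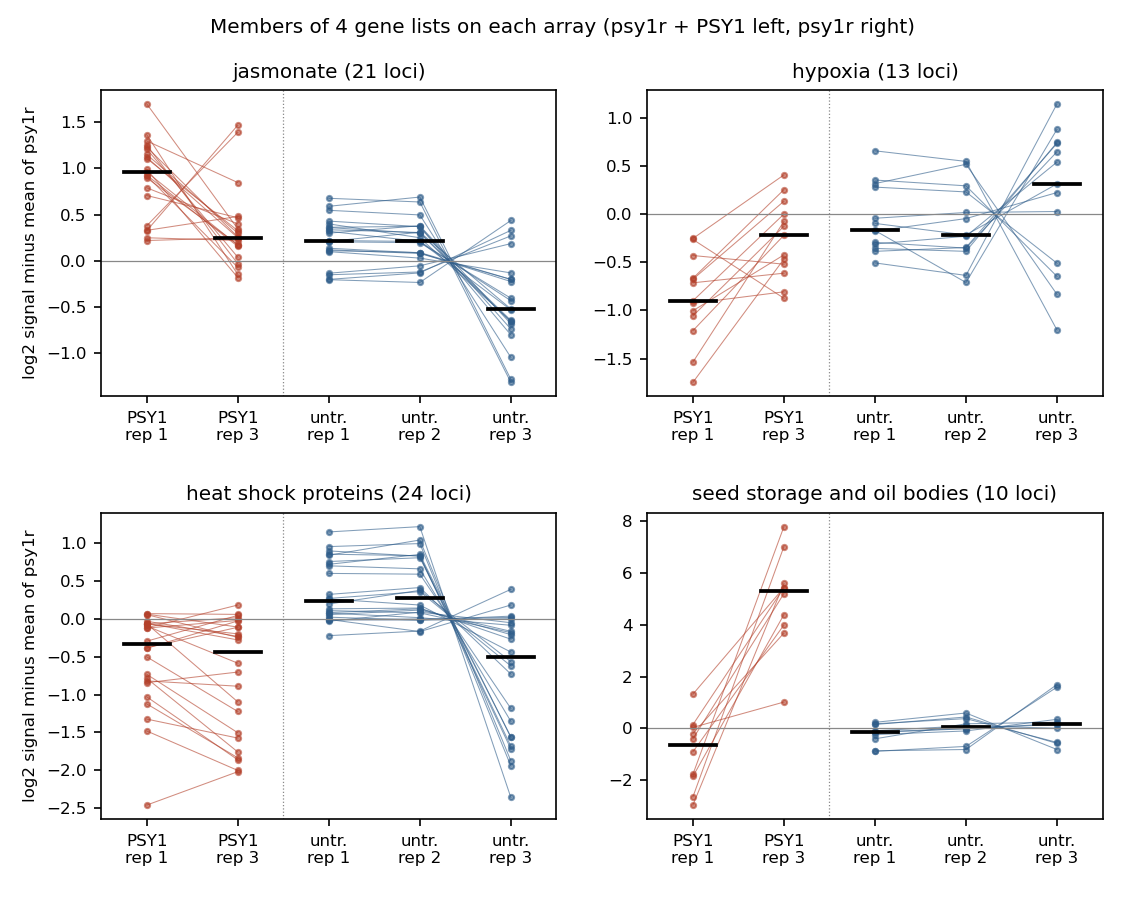
Log2 signal of each member of 4 gene lists, minus its mean over the 3 *psy1r* arrays, on the 2 *psy1r* + PSY1 arrays (left) and the 3 *psy1r* arrays (right), with black bars for the list medians. Seed storage loci are high on *psy1r* + PSY1 replicate 3 only, heat shock loci are high on *psy1r* replicates 1 and 2, and the jasmonate medians are lower on replicate 3 than on replicate 1 in both groups, with lines joining the values of a locus within a group.

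Seed transcripts were high on a single array. The list of seed storage and oil body genes had a median log2 signal of 5.46 on *psy1r* + PSY1 replicate 1 and 10.60 on *psy1r* + PSY1 replicate 3, against 5.99, 6.16 and 5.93 on the *psy1r* arrays. CRU3, a cruciferin storage globulin, read 4.72 and 14.29 in *psy1r* + PSY1 and 6.36, 6.49 and 6.65 in *psy1r*. OLEO1, an oleosin that coats oil bodies, read 2.2 and 10.76 in *psy1r* + PSY1 and 5.07, 5.26 and 5.17 in *psy1r*. The group mean of all 10 tested loci was thus higher in *psy1r* + PSY1, with a median of 1.96, but the median was -0.11 on slide 1 and 5.28 on slide 3, and only SESA1 had groups that did not overlap. SESA1 read 5.95 and 10.07 in *psy1r* + PSY1 and 4.78, 5.07 and 4.05 in *psy1r*.

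Other seed genes followed the same array. Their median was -1.43 on slide 1, where 0 of 9 loci were higher in the treated array, and 2.2 on slide 3, where 8 of 9 were higher. EM1, a late embryogenesis abundant protein, read 7.82 and 10.76 in *psy1r* + PSY1 and 8.59, 8.58 and 8.55 in *psy1r*. Without *psy1r* + PSY1 replicate 3, 3 of 10 storage and oil body loci and 1 of 9 other seed loci had the higher mean in the treated seedlings. The part of these transcripts in the other differences on slide 3 was not tested.

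Cold and abscisic acid genes, which protect cells from drought and freezing, had 14 of 16 loci with the higher mean in *psy1r* + PSY1 (52.7% of all loci did). The median was 0.48 (0.30 on slide 1 and 0.75 on slide 3), and 7 loci had groups that did not overlap (7.48% of all loci). The median was 0.23 without *psy1r* replicate 3. KIN2, a small protective protein of cold-treated tissue, read 15.79 and 15.81 in *psy1r* + PSY1 and 15.13, 15.20 and 14.64 in *psy1r*, 1.75-fold higher (limma adjusted p = 1). COR15B, a protective protein of the chloroplast, read 9.56 and 9.10 in *psy1r* + PSY1 and 8.78, 8.63 and 8.37 in *psy1r*. The upstream factors CBF1, CBF2 and DREB1A did not share this pattern, as both arrays of replicate 3 were high for them. CBF2 read 7.93 and 10.17 in *psy1r* + PSY1 and 7.66, 7.72 and 10.92 in *psy1r*. In wild type 6 of the 16 loci had a positive difference.

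The salicylate list, of the hormone of resistance to pathogens that feed on living tissue, had 11 of 15 loci with the higher mean (52.7% of all loci did) and a median of 0.18. ICS2, an isochorismate synthase of the salicylate pathway, read 5.85 and 5.98 in *psy1r* + PSY1 and 4.80, 5.04 and 4.68 in *psy1r*, 2.11-fold higher (limma adjusted p = 1). BGL2, the pathogenesis-related glucanase, read 7.69 and 8.21 in *psy1r* + PSY1 and 7.18, 7.08 and 7.12 in *psy1r* (limma adjusted p = 1). Both were among 5 of the 15 loci whose treated arrays lay above all untreated ones (7.48% of all loci). In wild type both had negative differences, -0.48 for ICS2 and -0.96 for BGL2, without a difference between the genotypes that passed the test (adjusted p = 0.0908 and 0.329).

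Cell wall and growth genes, which might be looked for after a peptide that promotes expansion, had medians close to that of all loci. Expansins, which loosen the wall, had a median of 0.06 over 26 loci, the XTH family of wall-remodelling enzymes 0.06 over 28, the auxin-induced SAUR family 0.09 over 64, and Aux/IAA and GH3 genes 0.08 over 37. Of the 64 SAUR loci, 27 were higher and 13 lower on both slides (21.4% and 20.8% of all loci). Their groups did not overlap in 11 higher and 1 lower (7.48% and 7.23% of all loci), and none was called. Cyclins and inhibitors of cyclin-dependent kinases had 0.04 over 38 loci. The cytosolic ribosomal proteins had 41 of 52 loci with the lower mean (47.3% of all loci did) and a median of -0.11, with -0.08 on slide 1 and -0.11 on slide 3. On both slides 21 were lower and 2 higher (20.8% and 21.4% of all loci). The groups did not overlap in 9 on the lower side (7.23% of all loci), and none was called. The root list had a median of -0.58 on slide 1 and 1.0 on slide 3, and its median of *psy1r* replicate 3 minus *psy1r* replicate 1 was -1.54. The green tissue list had a median of -0.08 and the WRKY factors 0.12.

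Of the further lists, the plant defensins had a median of 0.24, sugar starvation genes 0.16, light harvesting and Rubisco small subunit genes -0.08, the core clock -0.01, nitrate genes -0.10, touch and rapid stress genes 0.03 and the iron deficiency list, which holds IRT1 by its brighter probe, 0.10. Some of these medians turned with single arrays. The iron deficiency median was 0.81 without *psy1r* + PSY1 replicate 1 and -0.29 without *psy1r* + PSY1 replicate 3, and that of the touch genes 0.35 and -0.33. Sugar starvation genes had 0.52 on slide 1 and -0.08 on slide 3. None of the 25 lists held a locus that was called in *psy1r* + PSY1 against *psy1r*.

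**Figure D4:**
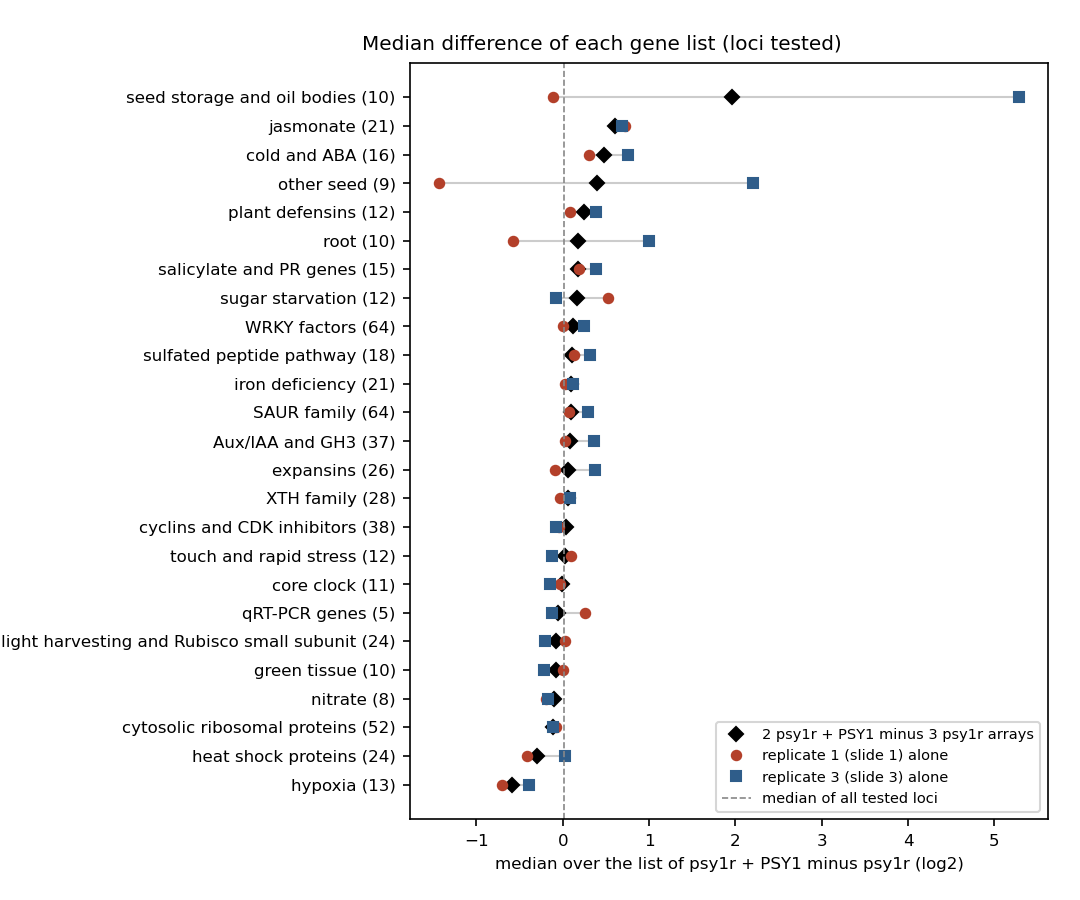
Median difference (log2) between *psy1r* + PSY1 and *psy1r* over the tested loci of each list (number in brackets), for all 5 arrays (diamonds), slide 1 alone (circles) and slide 3 alone (squares). The jasmonate medians of 0.72 and 0.68 nearly coincide, while the seed storage medians of -0.11 and 5.28 lie far apart.

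The loci that respond to PSY1 in wild type were then followed in the mutant. In WT + PSY1 against WT, 74 of 36131 probes were called (0.205%), 55 higher (0.152%) and 19 lower (0.0526%), which stand for 55 loci, and 50 of these were tested in *psy1r*. That count rests on arrays that are close to each other, since WT replicates 1 and 2 differed by 0.103 and the 3 WT + PSY1 arrays by 0.101 to 0.136 on the scale used above. On 17 and 18 repeatedly spotted probes, the F value described above was 0.95 and 1.05 for WT + PSY1 replicate 3 with replicates 1 and 2. On those probes the array differences varied about as much as spots of one array. With the replicate block 0 probes were called. Counting such arrays as 1 sample leaves 1 WT + PSY1 sample without a spread of its own, so no conclusion is drawn from that fit. The wild type difference comes from the 6 wild type arrays, but the spread behind its calls is that of all 11, and without a single *psy1r* array of either treatment the count was 10 to 335. The *psy1r* and wild type comparisons also share the slides. The 50 loci are therefore followed as a chosen list, whose wild type response is a description.

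Of the 36 loci called higher in WT + PSY1, with a median difference of 1.17 there, none was past 2-fold in *psy1r* + PSY1 against *psy1r*. The median in the mutant was 0.05, with a range from -0.17 to 0.98, 0.34 on slide 1 and -0.30 on slide 3, and 19 of the 36 were above 0, beside 52.7% of all loci. On both slides 6 of them were higher (21.4% of all loci). At an unadjusted p below 0.05, 3 were higher (1.28% of all loci) and 0 lower. The untreated groups also differed, with the *psy1r* mean above the WT mean in 24 of the 36 and below it in 10 (median difference 0.19). Among the genes that the study also followed by qRT-PCR, WVD2, which shapes cell expansion and root waving, read 6.48 and 6.35 in *psy1r* + PSY1 and 6.44, 6.66 and 6.48 in *psy1r*, against 7.78, 8.69 and 9.03 in WT + PSY1 and 5.97, 6.15 and 5.20 in WT. All 5 *psy1r* arrays lay between the levels of WT + PSY1 and WT.

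5PTASE11, an inositol polyphosphate 5-phosphatase, read 6.40 and 5.85 in *psy1r* + PSY1 and 6.14, 6.18 and 6.22 in *psy1r*, against 6.87, 6.97 and 7.02 in WT + PSY1 and 4.86, 4.92 and 5.09 in WT. Its response differed between the genotypes by -2.05 ± 0.22 (SE, limma adjusted p = 0.0268). CRL, a plastid protein, had a difference of -0.11 in *psy1r* and 1.02 in wild type, and ML2, called AML2 in the study, 0.25 and 1.37. MPK11, a MAP kinase, read 9.57 and 9.64 in *psy1r* + PSY1 and 9.23, 9.24 and 9.17 in *psy1r*, against 8.39, 8.37 and 8.50 in WT + PSY1 and 7.49, 7.46 and 7.30 in WT. Both *psy1r* groups lay above both wild type groups for this gene, and its treated arrays lay above the untreated ones in both genotypes (in *psy1r*, 7.48% of all loci). RALF35 did not pass the filter on dim probes and was not tested. The largest differences in the mutant among these 36 loci were in AT3G21660 (0.98), the auxin-responsive AT1G29450 (0.74) and the transporter gene UMAMIT23 (0.72).

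The 14 loci called lower in WT + PSY1 did not share that direction in the mutant. Their median difference was -1.42 in wild type and 0.80 in *psy1r*, where 1 of 14 was below 0 and 4 were more than 2-fold higher. On both slides 11 of the 14 were higher (21.4% of all loci), 10 had treated arrays above all untreated ones (7.48% of all loci), and 7 had a higher level at an unadjusted p below 0.05 (1.28% of all loci), though none passed the adjusted test. The medians were 0.41 on slide 1 and 0.97 on slide 3, and 0.84 with *psy1r* replicates 1 and 2 as 1 sample. The untreated groups already differed, with the *psy1r* mean below the WT mean in 14 of 14 loci (median difference -1.16). In treated seedlings the *psy1r* mean was above the WT mean in 12 of 14 (median difference 0.73). The part of the untreated difference in these responses was not tested.

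AT4G20970, of the basic helix-loop-helix family, read 9.09 and 8.79 in *psy1r* + PSY1 and 7.67, 7.67 and 6.95 in *psy1r*, against 6.55, 6.49 and 6.55 in WT + PSY1 and 9.38, 9.21 and 9.95 in WT. The transcription factor MYB112 read 7.09 and 7.39 in *psy1r* + PSY1 and 6.37, 6.37 and 6.01 in *psy1r*, against 5.53, 5.70 and 5.52 in WT + PSY1 and 7.39, 7.39 and 7.63 in WT. PRX52, a peroxidase, read 6.08 and 6.91 in *psy1r* + PSY1 and 5.15, 5.09 and 4.93 in *psy1r*, against 5.90, 6.03 and 6.14 in WT + PSY1 and 7.68, 7.72 and 8.06 in WT. AT1G10585, annotated as a transcription factor, read 9.66 and 9.32 in *psy1r* + PSY1 and 8.44, 8.44 and 8.11 in *psy1r* and had a log2 difference of -2.68 in wild type. TI1, a trypsin inhibitor, had a difference of 0.80 in *psy1r* and -1.32 in wild type. DREB2A, a transcription factor of the drought and heat response, had 0.32 and -1.31. AT4G18450 was the exception, with -0.64 in *psy1r* and -1.26 in wild type.

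**Figure D5:**
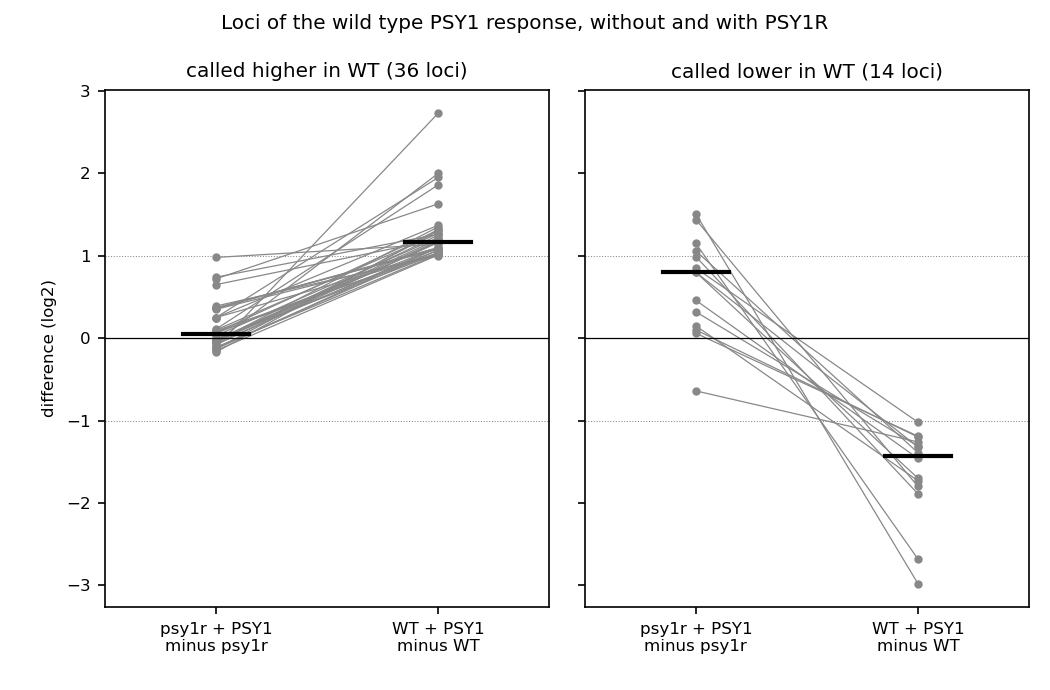
Difference (log2) between treated and untreated seedlings in *psy1r* (left of each panel) and in WT (right) for the loci called higher (36) or lower (14) in WT + PSY1, each line being 1 locus and the black bars the medians. The medians in *psy1r* are 0.05 and 0.80, beside 1.17 and -1.42 in WT, and dotted lines mark 2-fold.

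The difference between the responses of *psy1r* and WT was tested in one fit of all 11 arrays. It passed for 22 of 36131 probes (0.0609%), 16 with the higher and 6 with the lower response in *psy1r*, which cover 18 loci. The count depended on single arrays, with 4 without WT + PSY1 replicate 1, 2 or 3 and 65 without *psy1r* replicate 3. Fits without a *psy1r* + PSY1 array, or with the close arrays as 1 sample, leave a group with 1 sample, so no conclusion is drawn from them. With the replicate block 3 probes passed, 3 higher and 0 lower, so every lower response named here lost its call. The loci are named as they stand in the fit without it. Of the 50 loci followed above, 5 passed by the probe followed there and AT3G62990 by its dimmer probe only. For these the test partly repeats their choice by the wild type response. The dimmer IRT1 probe passed too (4.87, limma adjusted p = 0.000484), but it was not well above background in untreated mutants or on any wild type array, where it read 2.85 to 3.11 in WT + PSY1 and 3.17 to 3.52 in WT, and the brighter probe did not pass (0.92, limma adjusted p = 0.777).

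JRG21, a jasmonate-regulated gene, read 10.04 and 10.14 in *psy1r* + PSY1 and 8.33, 8.57 and 7.66 in *psy1r*, against 8.88, 9.10 and 8.87 in WT + PSY1 and 10.10, 10.19 and 10.82 in WT (difference 3.33 ± 0.39 SE, limma adjusted p = 0.0353). AIG1, a gene induced during the recognition of a bacterial effector, read 6.72 and 6.74 in *psy1r* + PSY1 and 5.47, 5.39 and 4.75 in *psy1r*, against 8.18, 8.19 and 8.06 in WT + PSY1 and 8.94, 8.87 and 9.36 in WT. MGL, a methionine gamma-lyase, read 11.26 and 11.63 in *psy1r* + PSY1 and 10.77, 10.81 and 10.46 in *psy1r*, against 11.35, 11.40 and 11.49 in WT + PSY1 and 12.40, 12.37 and 12.38 in WT. All 3 were higher in treated mutants and lower in treated wild type, and the groups did not overlap in either genotype. Since they were picked by the difference between these responses, this is a description. In *psy1r*, 7.48% of all loci had treated arrays above all untreated ones.

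Responses lower in *psy1r* included ABCC3, a transporter of the ATP-binding cassette family, with 12.36 and 12.42 in *psy1r* + PSY1 and 13.09, 13.05 and 12.78 in *psy1r*, against 12.55, 12.70 and 12.68 in WT + PSY1 and 11.72, 11.75 and 11.82 in WT. SPX1, a sensor of phosphate supply, read 14.29 and 14.30 in *psy1r* + PSY1 and 15.08, 14.97 and 15.05 in *psy1r*, against 15.10, 15.05 and 15.13 in WT + PSY1 and 14.76, 14.80 and 14.80 in WT. The difference was -1.46 ± 0.16 (SE) for ABCC3 and -1.05 ± 0.13 (SE) for SPX1. AT2G33585 and PMR6, a pectate lyase-like gene of powdery mildew susceptibility, had differences of -1.33 and -1.32. PMR6 has 3 tested probes, of which the probe that passed was not the brightest and no other passed. In each of these 4 genes, picked in the same way, the treated *psy1r* arrays lay below all untreated ones (7.23% of all loci).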

How the data were processed

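Total RNA of 11 whole-seedling samples was labelled by the authors with cyanine 3, put on 1-color Agilent Arabidopsis arrays and read with Agilent Feature Extraction 10.7.3.1 (per the file headers). The deposited scanner files give spot intensity, local background and a processed signal corrected for background, and the processed intensity was used here. The authors also deposited a table of log2 values with 43663 rows, of which 43603 matched a probe. The methods name the RMA method, but these log2 values correlated at 0.9999 or more with the processed signal scaled to the 75th percentile, and at 0.73 to 0.89 with RMA values.

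Processed signals were averaged over spots of a probe, scaled to the 75th percentile of each array and log2-transformed in R 4.3.3. Control spots were left out. Probes with 2 or more of the 5 arrays well above background were kept (33890), and 143 of these without a value on an array were dropped. Groups came from the sample labels. *psy1r* + PSY1 was compared with *psy1r* in limma 3.58.1, which was tested on simulated data, and a probe was called where its Benjamini-Hochberg adjusted p was less than 0.05 with more than 2-fold between the group means. The response of WT and its difference from that of *psy1r* came from a fit of all 11 arrays, with the filter on 2 of 11 arrays.

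Each locus of a list stood for its brightest probe. The 25 lists and all named genes were chosen with earlier results of these data known. Named were the sulfated peptide genes, called probes, the 15 loci on each side with the largest mean difference that passed 2-fold on both slides without overlap (brightest passing probe), list members and the genes that the study followed by qRT-PCR. A group with no array above background gave an "at least" fold, the mean of the higher group against, per array, the larger of the probe's signal and the lowest signal well above background of any probe. Some probes not well above background read higher than that lowest signal, so this fold is an approximate limit and not a strict bound. Same-numbered arrays share a slide, and the deviations of treated and untreated replicates correlated at 0.41 and 0.33, which are not separate values with 2 treated arrays. Locus names came from the arrays and the RefSeq annotation TAIR10.1. Alternatives were other backgrounds and scalings (the mean spot signal was not used, so RMA and normexp started from the median), filters, a replicate block, array weights, the methods' t-test, other limits and leaving out each array, and, added after seeing the data, close arrays as 1 sample. The number of arrays limits the precision.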

Additional observations from a re-analysis of the deposited data

Results flagged for a closer look

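The response to PSY1 differed between *psy1r* and WT, by a test of the difference itself in limma on all 11 arrays, in the probes listed here, and each value is the log2 response in *psy1r* minus that in WT. The difference was 4.87 for IRT1 (adjusted p = 0.000484), the iron transporter, at a probe above background only on the 2 *psy1r* + PSY1 arrays, while the brighter IRT1 probe gave 0.92 (adjusted p = 0.777). For transcription factors it was 2.88 for MYB112 (adjusted p = 0.0049) and 4.49 and 4.41 for both probes of AT4G20970 (adjusted p = 0.00689 and 0.014). For the ubiquitin ligase ATL8 and the peroxidase PRX52 it was 1.87 and 3.24 (adjusted p = 0.0165 for both), and for the hypothetical protein AT3G62990 it was 3.36 (adjusted p = 0.0206).

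Negative differences were found for 5PTASE11 with -2.05 (adjusted p = 0.0268), AT2G33585 with -1.33 (adjusted p = 0.0299), ABCC3 with -1.46 (adjusted p = 0.0324), PMR6 with -1.32 (adjusted p = 0.0353) and SPX1 with -1.05 (adjusted p = 0.0403). MGL had 1.74 and JRG21 had 3.33 (adjusted p = 0.0353 for both). AT5G03610, a GDSL-motif lipase, had 1.11 (adjusted p = 0.0456), MLO12, of the MLO family of powdery mildew susceptibility, had 1.17 (adjusted p = 0.0469) and AIG1 had 2.44 (adjusted p = 0.047). The receptor-like protein RLP22 had 1.68 and AT5G12340 had 1.48 (adjusted p = 0.0494 for both). For PMR6, MLO12, AT5G03610 and AT3G62990 the probe that passed was not the brightest, and no brighter probe of these loci passed. With the replicate block 3 probes passed, 3 higher and 0 lower, so all negative differences listed here were lost. Counting close arrays as 1 sample cannot decide on these calls, as WT + PSY1 is then 1 sample without a spread of its own.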

How the results depend on the processing

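The count of 0 called probes for *psy1r* + PSY1 against *psy1r* became 6 (4 higher, 2 lower) in a fit of all 11 arrays and 240 (111 higher, 129 lower) with unadjusted p, and ranged from 0 to 11 when single arrays were left out, with the 11 without *psy1r* + PSY1 replicate 1, where the treated group is 1 array assumed to vary like the untreated ones. It was 0 with the replicate block, without a filter, with array weights, with the methods' t-test and under every scaling tried. Probes past 2-fold on both slides, 292 in all, became 983 at a 1.5-fold limit and 49 (27 higher, 22 lower) after normexp and quantile normalization.

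The 22 calls for the difference between the genotypes (16 higher, 6 lower) became 52 (23 higher, 29 lower) after normexp and quantile normalization, 9 with no filter, 3 with the replicate block, 0 with close arrays as 1 sample and 1199 with unadjusted p, and 19 (11 higher, 8 lower) with the array median. Leaving out single arrays gave 4 to 731, with 65 without *psy1r* replicate 3 and 50 without WT replicate 3. The 74 calls in WT became 19 after RMA, 43 with the array median, 28 with no filter, 168 with probes above background on all 11 arrays, 0 with the replicate block, 1015 (480 higher, 535 lower) with array weights, 0 with close arrays as 1 sample and 1045 with unadjusted p, and 0 to 335 without single arrays, with 0 without WT + PSY1 replicate 3. The cause of these shifts was not tested.

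Of 1268 alternative values for 73 gene results, 1190 kept their side of the threshold with the same sign or a shift within the standard error, 74 moved and 4 gained a call. Values not called did change sign, such as PSY1R (1.09, lowest -0.95), PSK2 (0.24, lowest -0.35), PSK1 (-0.09, highest 0.86) and CRL (-0.11, highest 0.21). Differences of loci at background in untreated *psy1r* shrank under some alternatives. The lowest were 1.25 for the dimmer IRT1 probe (4.54), 0.65 for AT4G09210 (3.41) and 0.38 for AT2G21725 (2.72). The 25 list medians had 450 alternatives, of which 75 moved by more than the spread between the slides. The jasmonate median stayed between 0.25 and 0.95 and the hypoxia median between -0.90 and -0.22, while the seed storage median ranged from -0.66 to 5.31 and the heat shock median from -0.43 to 0.02.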
